A study of Mus musculus with 72 samples.

Results

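The 9 genes described here carry out antigen presentation by major histocompatibility complex (MHC) class I: the heavy chains H2-K1 and H2-D1, the light chain B2m, the peptide transporter subunits Tap1 and Tap2, the loading factor Tapbp, and the immunoproteasome subunits Psmb8, Psmb9 and Psmb10. They were taken by name, as all probe sets of the deposited table that the platform annotation assigns to 1 of these symbols alone. That gave 26 of 45101 probe sets, and 9 of the 18193 genes with such a probe set. Each gene is described by its brightest probe set over all 72 arrays, and some values of the others are given at the end. For H2-K1 and H2-D1 the brightest probe sets belong to a class whose probes can match sequences of related genes, so signal from near-identical class I genes cannot be told apart from theirs.

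The study measured RNA in 4 organs (liver, kidney, heart, brain) taken from female SAMP1 mice, a substrain of senescence accelerated mice (prone 1), which ages early. From 4 weeks of age the mice received QH2, the reduced form of coenzyme Q10, at 500 mg per kg body weight per day, or Q10, its oxidised form, at the same intake, or a control diet, for 14 or 6 months, and were 15 or 7 months old when killed. Each of the 24 groups of tissue, diet and duration had 3 arrays (Affymetrix Mouse 430 2.0), from 3 mice for each diet and duration. The mice lived 3 to 6 per cage in unchanged groups. The labels give neither the cage mates nor whether an array number stands for the same mouse from tissue to tissue.

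Class I molecules display peptides from inside the cell to cytotoxic T cells. Proteasomes cut the proteins, the Tap1/Tap2 pump carries the peptides into the endoplasmic reticulum, and tapasin (Tapbp) holds the empty heavy chain and B2m beside the pump until a peptide binds. Interferons, interferon gamma above all, raise the transcription of these genes, and the subunits Psmb8, Psmb9 and Psmb10 then take the places of the constitutive catalytic subunits Psmb5, Psmb6 and Psmb7 in newly made proteasomes. Immune cells contain high levels of the whole set, hepatocytes and kidney tubules lower ones, and neurons very little.

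Promoter sequence is shown because these genes are known to answer interferon and NF-kappa-B together, through elements just upstream of their starts. RefSeq windows (GRCm38.p6, from the C57BL/6J reference and not from SAMP1) were found for 8 of the 9 genes. For the heavy chains the capitals mark an NF-kappa-B site, GGGGATTCC, and the core of the class I interferon element, TTTCACTTC. For B2m they mark an interferon response core of the form GAAANNGAA. For the interval between Psmb9 and Tap1 they mark a CCAAT box and a TGACG core. The sequences read 5′ to 3′ on the strand of the gene, and on the strand of Tap1 for the shared interval.
H2-K1: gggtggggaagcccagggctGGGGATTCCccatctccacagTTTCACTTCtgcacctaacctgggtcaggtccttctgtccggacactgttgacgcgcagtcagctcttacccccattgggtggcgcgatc
H2-D1: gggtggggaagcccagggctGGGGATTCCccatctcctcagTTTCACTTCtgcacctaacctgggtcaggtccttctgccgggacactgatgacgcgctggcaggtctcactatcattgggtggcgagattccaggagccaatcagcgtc
B2m: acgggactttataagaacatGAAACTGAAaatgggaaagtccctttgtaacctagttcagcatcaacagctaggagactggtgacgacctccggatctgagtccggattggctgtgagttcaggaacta
Tap1 and Psmb9: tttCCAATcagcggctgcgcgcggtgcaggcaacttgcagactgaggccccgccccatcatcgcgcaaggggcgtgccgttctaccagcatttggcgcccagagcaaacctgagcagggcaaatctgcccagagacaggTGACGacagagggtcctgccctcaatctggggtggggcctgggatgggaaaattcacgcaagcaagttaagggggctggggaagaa

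The H2-K1 stretch is chr17:34000348-34000478 on the minus strand, 131 bases ending 1 base before the annotated start. The H2-D1 stretch is chr17:35262903-35263052 on the plus strand, and the B2m stretch is chr2:122147528-122147656 on the plus strand. In both heavy chain promoters 12 bases separate the NF-kappa-B site from the interferon element core. Over 27025 promoter windows of the same length (250 bases before the start, both strands searched), GGGGATTCC was found in 0.218%, TTTCACTTC in 0.429% and GAAANNGAA in 7.16%, and the matches in the members do not overlap each other. Of the 8 member windows, the first 2 motifs were in H2-K1 and H2-D1, and the interferon response core was in B2m. CCAAT was in 6 of the 8 windows and in 34.5% of all windows, and TGACG in 5 of the 8 and in 17.9% of all. Psmb9 and Tap1 run away from each other, and the 225 bases between their starts, chr17:34187331-34187555, are all the upstream sequence that lies between them. In the RefSeq order Psmb9, Tap1, Psmb8 and Tap2 follow each other on chromosome 17 with no other coding gene between them, while B2m lies on chromosome 2 and Psmb10 on chromosome 8.

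All signals below are linear array intensities after the distributions of the 18 arrays of a tissue were made equal, and differences are log2 fold changes with their standard errors from limma, called at a Benjamini-Hochberg adjusted p under 0.05 over 27022 probe sets. The deposited mean signal of an array ranged from 85.8 to 174 for liver, from 133 to 264 for kidney, from 109 to 281 for heart and from 143 to 281 for brain, and the number of arrays limits the precision. The p-values measure the spread between these samples. Marker lists followed the tissue labels in the 14-month arrays, with each tissue normalised on its own. The summed signal of hepatocyte markers was 42710 to 48264 in livers, and that of tubule markers 31820 to 38198 in kidneys. That of cardiomyocyte markers was 57081 to 75227 in hearts, and that of neuron markers 21313 to 23156 in brains. In the other tissues the tubule, cardiomyocyte and neuron lists reached at most 89.9, 114 and 259. The hepatocyte list was not confined to liver. It had 9668 to 11454 in brains, 2282 to 4373 in kidneys and 53.8 to 197 in hearts. Some arrays stood apart. At 14 months on Q10, arrays 2 and 3 together lay more than 1 log2 unit above all 16 other arrays of their tissue at 400 of 45037 probe sets for liver, 33 for kidney, 83 for heart and 7 for brain, and that far below them at 42 in liver and 0 elsewhere. In heart, QH2 arrays 2 and 3 at 14 months did so at 13 probe sets upward and 1 downward, 3 of them assigned to H2-D1. The comparisons that use these arrays are therefore also given without them.

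For 8 of the 9 genes the lowest median level was in brain, and for Psmb10 it was in kidney. Over the 18 arrays of each tissue, normalised together, B2m had median signals of 6787 (liver), 3540 (kidney), 3374 (heart) and 626 (brain). H2-D1 had median signals of 2375 (liver), 758 (kidney), 909 (heart) and 80.0 (brain). Psmb8 had median signals of 359 (liver), 132 (kidney), 155 (heart) and 21.5 (brain). The order was thus liver first, kidney and heart close together, brain last. The tissue differences that follow come from a fit that takes all arrays as independent, although the tissues shared mice. The mean difference of liver over brain was 4.74 ± 0.14 on the log2 scale for H2-D1, 4.18 ± 0.17 for Psmb8 and 3.39 ± 0.08 for B2m, with limma adjusted p of 7.66e-38, 7.78e-31 and 2.7e-41. Kidney and heart did not differ beyond their spread for H2-K1, H2-D1, B2m, Tapbp, Psmb8 and Psmb9 (adjusted p between 0.0896 and 0.546). They differed for Tap1, higher in kidney by 0.40 ± 0.18 (adjusted p = 0.037), and for Tap2 and Psmb10, which were lower in kidney.

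Psmb10 and Tap2 left that order. Psmb10, the subunit that replaces Psmb7, had median signals of 521 (liver), 144 (kidney), 420 (heart) and 222 (brain), so that kidney lay below brain (log2 difference -0.51 ± 0.09, adjusted p = 3.05e-07). Tap2 had median signals of 133 (liver), 102 (kidney), 151 (heart) and 32.3 (brain), and liver lay below heart (log2 difference -0.20 ± 0.09, adjusted p = 0.0458). Tissue differences were common on the array: 71.7% of the 27022 probe sets tested differed between liver and kidney, 80.8% between liver and heart, 85.7% between liver and brain, 78.4% between kidney and heart, 81.8% between kidney and brain, and 85.9% between heart and brain. Of the 9 members, 9 differed in each of these pairs but kidney and heart, where 3 did.

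In liver after 14 months, class I and immunoproteasome RNA was higher on Q10 than on the control diet. Of the 9 genes, 7 rose (H2-K1, Tap1, Tap2, Tapbp, Psmb8, Psmb9 and Psmb10), by 1.84-fold for Tapbp to 4.28-fold for Psmb9. H2-D1 and B2m had positive differences that did not pass. Over all 27022 probe sets 3.88% were called higher. All 9 genes had Q10 and control arrays that did not overlap, as did 23.8% of all probe sets. The median log2 difference was 1.16 over the members and -0.10 over all probe sets.

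Of the 9 genes, the immunoproteasome subunits Psmb9 and Psmb8 had the largest log2 differences, and Psmb10 had a smaller one. Psmb8 had signals of 615, 1189 and 766 on Q10 (arrays 1, 2 and 3), against 234, 139 and 221 on control. Psmb9 had 537, 1202 and 764 on Q10, against 204, 175 and 174 on control. Psmb10 had 441, 688 and 569 on Q10, against 282, 226 and 268 on control. In all of these the lowest Q10 array lay above the highest control array, and array 2 was the highest. The log2 difference was 2.09 ± 0.24 for Psmb8 (857 ± 297 on Q10, 198 ± 51.9 on control, SD, n = 3 each, limma adjusted p = 0.000333), 2.10 ± 0.26 for Psmb9 (adjusted p = 0.000333) and 1.11 ± 0.18 for Psmb10 (adjusted p = 0.00145). Their constitutive counterparts did not pass: Psmb5 had a log2 difference of -0.28 ± 0.13, Psmb6 of -0.18 ± 0.11 and Psmb7 of -0.03 ± 0.11.

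Among the loading genes, Tap1 had the widest difference. Its signals were 81.3, 172 and 110.1 on Q10, against 35.8, 25.3 and 41.3 on control, a log2 difference of 1.76 ± 0.28 (adjusted p = 0.00137). Tap2, the other chain of the pump, had 126, 232 and 127 on Q10, against 69.6, 61.9 and 70.9 on control, with a difference of 1.19 ± 0.23 (adjusted p = 0.00444). Tapbp had 1327, 1924 and 1249 on Q10, against 818, 781 and 804 on control, with a difference of 0.88 ± 0.17 (adjusted p = 0.00587). Array 2 was again the highest of the Q10 livers for each, and the control livers lay close together for Tap2 and Tapbp.

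Of the molecules that are loaded, H2-K1 passed and H2-D1 and B2m did not. H2-K1 had signals of 492, 1002 and 616 on Q10, against 325, 285 and 293 on control, a log2 difference of 1.16 ± 0.24 (adjusted p = 0.00714). H2-D1 had 3415, 4044 and 3917 on Q10, against 2363, 2154 and 2315 on control, a difference of 0.73 ± 0.22 that missed the threshold (adjusted p = 0.0517). B2m had 7088, 8597 and 7815 on Q10, against 6659, 6623 and 6352 on control, a difference of 0.26 ± 0.13 (adjusted p = 0.28). For all 3 genes every Q10 array was above every control array.

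**Figure D1:**
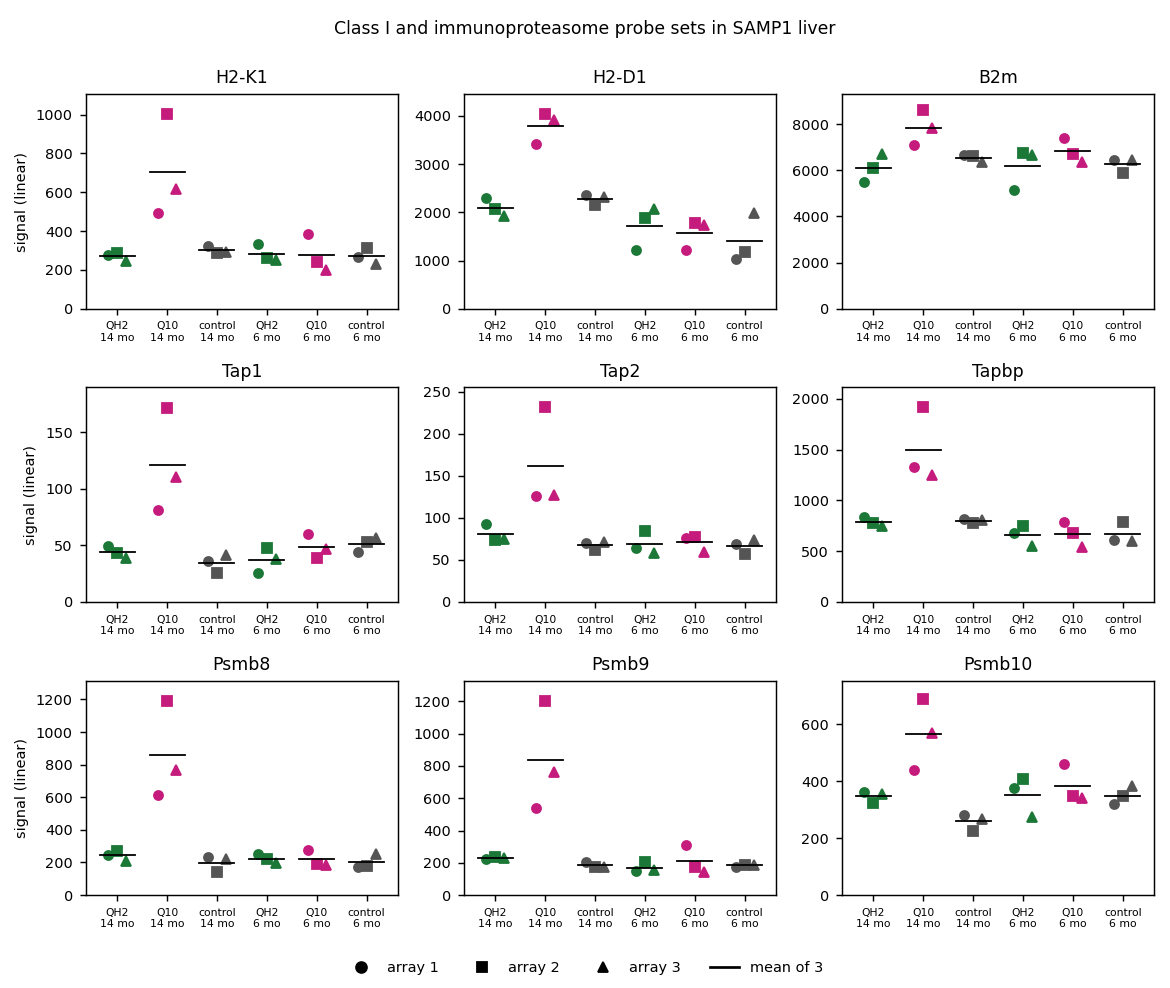
Linear signal of the 9 genes in 18 liver arrays, by diet and duration (14 months left, 6 months right; circle, square and triangle for arrays 1, 2 and 3; line for the mean of 3). At 14 months the Q10 arrays lie above the control and QH2 arrays for every gene, Psmb8 at 615, 1189 and 766, and array 2 is the highest of them; for B2m and Psmb10 array 1 lies below a Q10 array of 6 months.

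These livers also differed in blood cell markers and RNA quality. The leukocyte list (Ptprc, Cd52, Cd53, Coro1a, Rac2, Lcp1, Cd48) rose in 7 of 7 genes, with a summed signal of 398 to 586 on QH2, 1173 to 9278 on Q10 and 370.0 to 525 on control. The macrophage list rose in 14 of 14, with a summed signal of 7959 to 25958 on Q10, against 1158 to 2842 on control, and the B cell list in 6 of 6, with 253 to 3687 against 66.2 to 100.3. No value of a marker probe set was 0. The hepatocyte list was called in 0 of 5 genes, at 42710 to 45995 on Q10, against 46438 to 47282 on control. The ratio of 3′ to 5′ signal of Actb, low in intact RNA, was 3.05, 1.59 and 1.98 on Q10 and 3.49, 3.88 and 4.11 on control. In whole tissue, more cells of a type and more RNA per cell cannot be told apart, and the part of these markers and of RNA quality in the class I difference was not tested.

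Without Q10 arrays 2 and 3, 1 of the 7 calls remained, Psmb8 (log2 difference 1.67, adjusted p = 0.0393), while Psmb9 had 1.54 (adjusted p = 0.0643) and Tap1 1.26 (adjusted p = 0.36); a single array then stands for Q10 and is taken to vary like the other groups. With the Actb ratio as a covariate, or with only the diets compared in the fit, 0 of 9 passed.

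QH2 livers did not share the higher levels. Against Q10 at 14 months, 8 of the 9 genes fell on QH2, from -0.68 for Psmb10 to -1.78 for Psmb9 on the log2 scale, where 4.93% of all probe sets were called lower. In 9 of 9 genes QH2 and Q10 arrays did not overlap, against 25.9% of all probe sets. Psmb8 had 245, 272 and 211 on QH2, against 615, 1189 and 766 on Q10, a difference of -1.77 ± 0.24 (adjusted p = 0.000442). Psmb9 had 221, 234 and 232 on QH2, against 537, 1202 and 764 on Q10, a difference of -1.78 ± 0.26 (adjusted p = 0.000733). H2-D1 had 2292, 2063 and 1927 on QH2, against 3415, 4044 and 3917 on Q10, a difference of -0.86 ± 0.22 (adjusted p = 0.0193). The 3 QH2 livers lay close together for each of these genes, far below the lowest Q10 liver. Only B2m did not pass, with 5503, 6106 and 6693 on QH2, against 7088, 8597 and 7815 on Q10 (-0.36 ± 0.13, adjusted p = 0.0936).

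The other QH2 differences from Q10 in liver were -1.39 ± 0.28 for Tap1 (adjusted p = 0.00611), -0.94 ± 0.23 for Tap2 (adjusted p = 0.0153), -0.90 ± 0.17 for Tapbp (adjusted p = 0.00425) and -1.32 ± 0.24 for H2-K1 (adjusted p = 0.0026). Without Q10 arrays 2 and 3, 0 of 9 passed, and Psmb8 had -1.35 (adjusted p = 0.117). The leukocyte list fell in 7 of 7 genes and the macrophage list in 14 of 14, and the Actb ratio was 7.36, 3.67 and 5.01 on QH2, against 3.05, 1.59 and 1.98 on Q10.

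Against control, QH2 livers of 14 months had differences from -0.16 for H2-K1 to 0.43 for Psmb10, and 0 of 9 passed, as did 0% of all probe sets; at an unadjusted p under 0.05 there was 1, Psmb10, a share near the 6.19% of all probe sets. Psmb10 had 362, 322 and 356 on QH2, against 282, 226 and 268 on control, without overlap (adjusted p = 0.77). Its 95% interval ran from 0.05 to 0.80, and that of Psmb8 from -0.18 to 0.83. The arrays did not overlap for 3 genes, Tap2, Psmb9 and Psmb10, and for 18.7% of all probe sets.

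At 6 months the diets gave no call for any member in any tissue. In liver the largest Q10 difference from control was 0.21, for H2-D1, and Psmb8 had 249, 219 and 195 on QH2, 278, 193 and 185 on Q10, and 173, 180.5 and 249 on control. The 3 diets overlapped for Psmb8, and no liver member separated 2 diets at that age. The shares of all probe sets called at 6 months in liver were 0.81% for Q10 against control, 0% for QH2 against control and 0.988% for QH2 against Q10. In kidney they were 0%, 0.192% and 0.292% in the same order, in heart 0%, 0% and 0.0666%, and in brain 0% each. At an unadjusted p under 0.05 there were 0 members for Q10 against control in liver, kidney and heart and 1 in brain, where 6.11% of all probe sets had one. For QH2 against Q10, 6 of 9 members were lower in liver, 9 of 9 in kidney and heart, and 8 of 8 in brain. Over all probe sets 49.5%, 48.6%, 49.3% and 49.4% were higher, in the same order. The unadjusted limma p was under 0.05 for 0, 0, 1 and 2 members, against 10.6%, 10.1%, 6.99% and 7.66% of all probe sets. Arrays did not overlap for 0, 1, 1 and 4 members, against 16.1%, 18%, 12.4% and 10.4%.

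The Q10 effect in liver was larger at 14 than at 6 months for 4 of the 9 genes, against 1% of all probe sets: Psmb9 by 1.99 ± 0.36 (adjusted p = 0.00782), Psmb8 by 1.97 ± 0.34 (adjusted p = 0.00538), Tap1 by 1.86 ± 0.40 (adjusted p = 0.0202) and Psmb10 by 0.99 ± 0.25 (adjusted p = 0.0456). Without Q10 arrays 2 and 3 of 14 months, 0 passed. For the QH2 effect, 0 of 9 passed in liver, as did 0% of all probe sets. Outside liver 0 members passed for either form, beside 0.0074% of all probe sets in kidney for Q10, 0.0296% in brain for QH2 and 0% in the other cases.

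**Figure D2:**
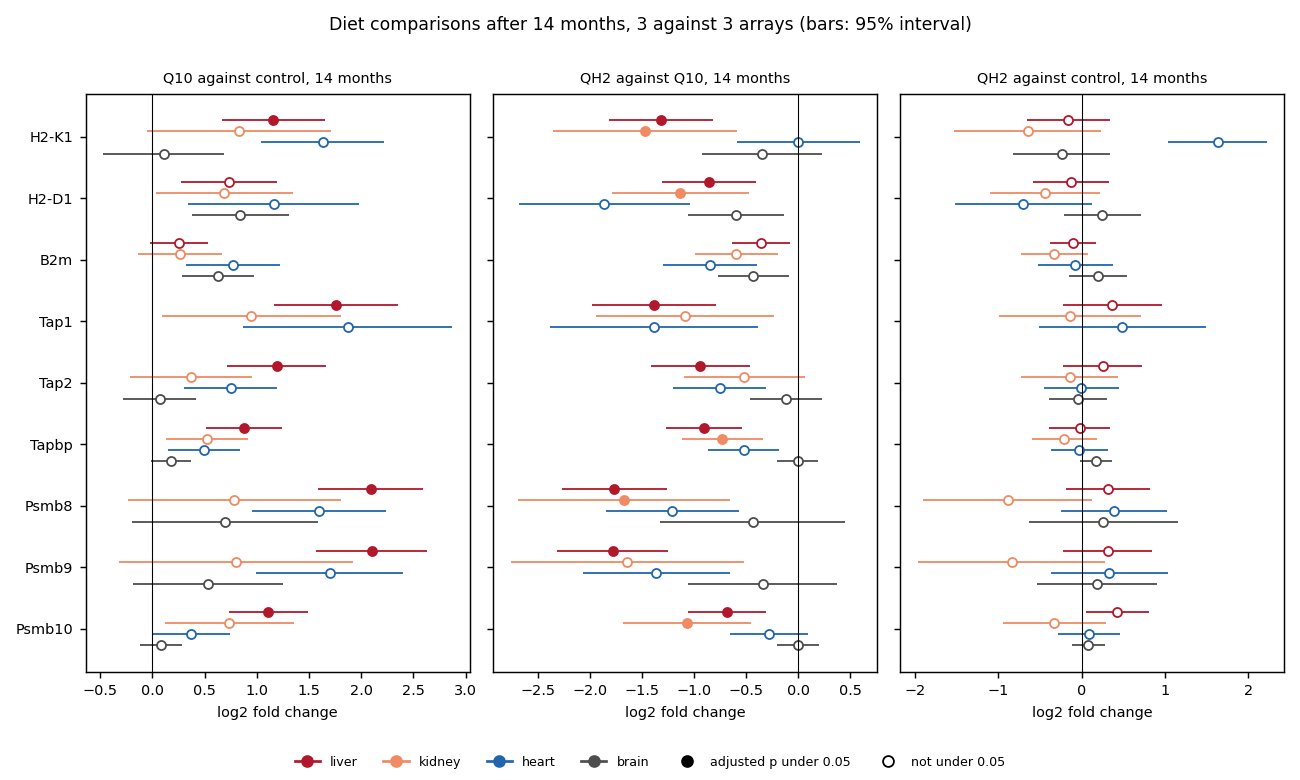
Log2 fold changes of the 9 genes between diets at 14 months in 4 tissues, 3 against 3 arrays, with 95% intervals; filled points have an adjusted p under 0.05, and Tap1 in brain was below the signal filter. Against control, Q10 differences lie above 0 in all tissues and 7 are filled in liver; against Q10, QH2 has 8 filled points in liver and 5 in kidney.

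In kidney at 14 months the spread among Q10 mice was wide. Psmb8 had 162, 1270 and 609.6 on Q10, against 404, 156 and 388 on control. H2-D1 had 1134, 3797 and 2122 on Q10, against 1857, 806 and 1455 on control. B2m had 3890, 7434 and 5281 on Q10, against 5612, 3289 and 4762 on control. Array 1 was the lowest of the Q10 kidneys for 9 of 9 genes and lay inside the range of the control kidneys for Psmb8, H2-D1 and B2m, while array 2 was the highest of all 18 kidneys. Differences from control ran from 0.27 for B2m to 0.95 for Tap1, all positive, and 0 of 9 passed, beside 0.67% of all probe sets; 4 had an unadjusted limma p under 0.05, against 12.6% of all probe sets. Without Q10 array 1, which leaves the 2 Q10 arrays that stood apart, 7 passed. The share of all probe sets called in that fit is not given here. Without arrays 2 and 3 the values ran from -0.96 for Psmb9 to 0.02 for Tapbp, with 0 called. The Actb ratio was 3.22, 1.64 and 2.37 in the Q10 kidneys and 2.25, 2.48 and 2.10 in the control kidneys, and the summed leukocyte signal was 1362 to 14143 on Q10 and 1221 to 4766 on control. Their part in the spread was not tested.

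QH2 kidneys were lower than Q10 kidneys for 5 genes, where 2.06% of all probe sets were called lower. H2-K1 had 231, 152 and 179 on QH2, against 206, 1159 and 570.1 on Q10 (-1.48 ± 0.42, adjusted p = 0.0459). Tapbp had 693, 656 and 611 on QH2, against 766, 1563 and 1054 on Q10 (-0.73 ± 0.19, adjusted p = 0.03). Psmb10 had 177, 113 and 141 on QH2, against 162, 526 and 307 on Q10 (-1.06 ± 0.29, adjusted p = 0.0402). The QH2 kidneys were close to each other, and the groups did not overlap for Tapbp and B2m, 2 of 9 genes, against 20.3% of all probe sets. H2-D1 fell by 1.13 (adjusted p = 0.0411) and Psmb8 by 1.67 (adjusted p = 0.0484), while Psmb9 missed at -1.64 (adjusted p = 0.0762), B2m at -0.59 (adjusted p = 0.0723), Tap1 at -1.09 (adjusted p = 0.118) and Tap2 at -0.52 (adjusted p = 0.299).

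The kidney calls were lost without any 1 of Q10 arrays 2 and 3 or QH2 arrays 1, 2 and 3, with 0 passing each time. Without Q10 array 1, 9 passed, and the share of all probe sets called in that fit is not given here. The summed leukocyte signal was 725 to 1517 in QH2 kidneys, against 1362 to 14143 in Q10 kidneys, and 4 of 7 of its genes fell. QH2 against control had differences from -0.89 for Psmb8 to -0.14 for Tap1, with 0 called among the members and 0% of all probe sets.

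In heart at 14 months all 9 genes were higher on Q10 in the fitted means, and 0 passed, beside 0% of all probe sets; 9 had an unadjusted limma p under 0.05, against 9.69% of all probe sets, and 8 had arrays that did not overlap, against 16.8% of all probe sets. H2-K1 had 273, 519 and 418 on Q10, against 154, 106 and 120.4 on control (1.63 ± 0.28, adjusted p = 0.0737). Psmb8 had 224, 560.0 and 482 on Q10, against 119.8, 136 and 132 on control (1.60 ± 0.31, adjusted p = 0.0912). Psmb9 had 179, 481 and 378 on Q10, against 91.7, 92.0 and 111 on control (1.70 ± 0.34, adjusted p = 0.0912). As in liver, array 1 was the lowest Q10 heart for these genes and still above every control heart. Without array 1, which leaves the 2 Q10 arrays that stood apart, 6 of 9 passed. The share of all probe sets called in that fit is not given here. Without arrays 2 and 3 the difference was 1.12 for H2-K1 and 0.79 for Psmb8 (adjusted p = 1 for both). The summed leukocyte signal was 475 to 3383 in Q10 hearts and 318 to 365 in control hearts.

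**Figure D3:**
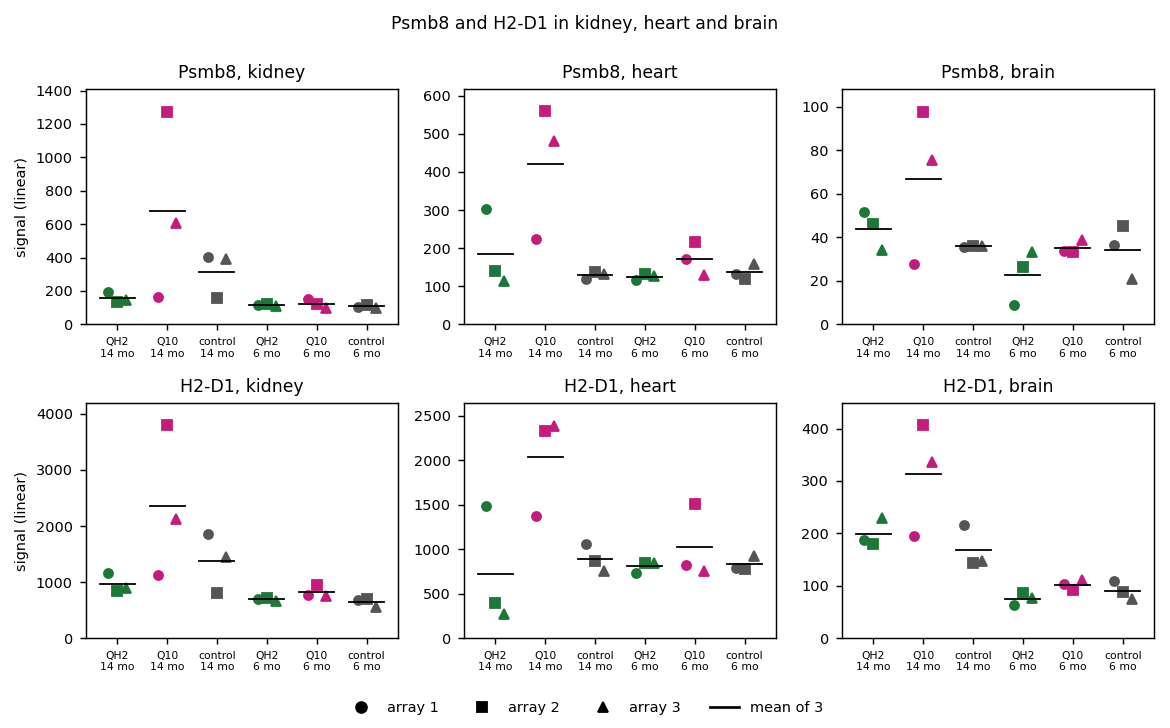
Linear signal of Psmb8 and H2-D1 in kidney, heart and brain by diet and duration (circle, square and triangle for arrays 1, 2 and 3; line for the mean of 3). On Q10 at 14 months arrays 2 and 3 lie above array 1 in every panel, and in heart 2 QH2 arrays of 14 months have the lowest H2-D1 signals, 396 and 269.

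The heavy chain probe sets of QH2 hearts at 14 months went separate ways in arrays 2 and 3. With probe sets ranked by brightness, that of rank 1 for H2-D1 had 1484, 396 and 269 on QH2, against 1379, 2329 and 2391 on Q10, and 1055, 864 and 752 on control; 396 and 269 were the lowest of all 18 hearts. In contrast, 3 other probe sets assigned to H2-D1 were highest in these arrays: that of rank 4 had 476 and 279 there and 26.3 to 121 in the 16 other hearts. That of rank 6 had 393 and 254 there and 6.93 to 43.3 in the others, and that of rank 5 had 372 and 271 there and 19.9 to 54.3 in the others. H2-K1 had 270.2, 614 and 357 on QH2, so array 2 was the highest of the 18 hearts. In QH2 livers of 14 months the rank 6 probe set had 44.3, 17.0 and 26.8, and in QH2 kidneys 18.1, 13.2 and 6.67, far below the values of those 2 hearts.

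The same heart arrays had high signals of Myl7 and Sln, which heart atria are known to make in larger amounts than ventricles. Myl7 had 8174 and 1658 in QH2 arrays 2 and 3, and at most 134 in the 16 others, and Sln had 4598 and 742, and at most 20.8 in the others. Myl4, Mybphl, Dkk3, Hamp, Amacr, Oxct1 and Gdpd3 were also higher there, and Stbd1 was lower. Amacr had 287 and 286 (at most 99.4 in the others), Oxct1 1847 and 1859 (at most 568) and Gdpd3 356 and 405 (at most 19.0). Stbd1 had 15.0 and 16.6, and at least 49.25 in the others. Neither the part of tissue sampled nor whether these 2 arrays carry the right labels was tested, and the QH2 heart differences below include them unless stated.

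**Figure D4:**
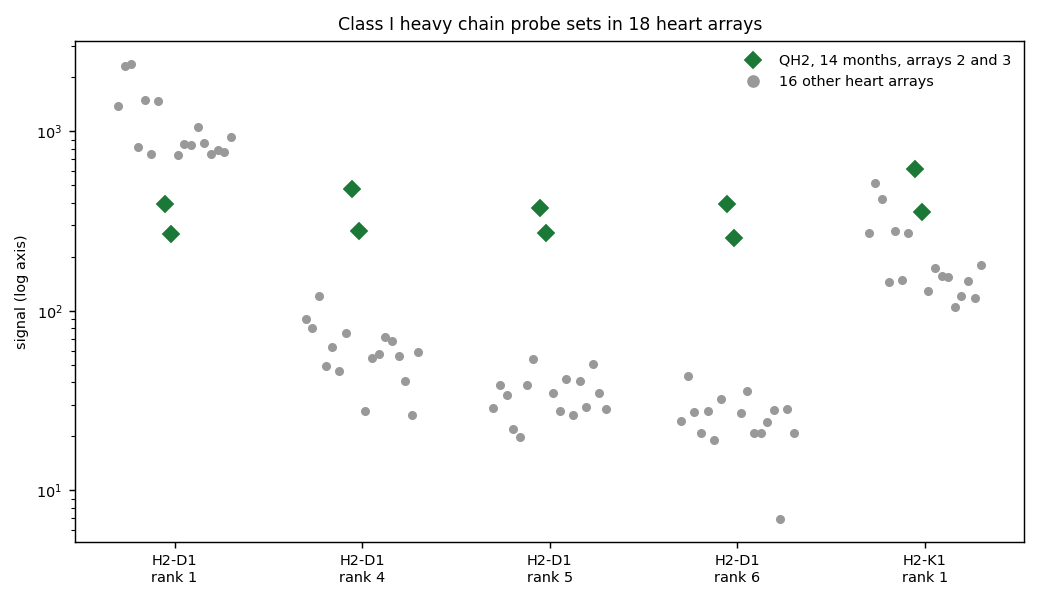
Signal (log axis) of 4 H2-D1 probe sets and the main H2-K1 probe set in 18 hearts; diamonds are arrays 2 and 3 of QH2 at 14 months. They are below the 16 others at the rank 1 H2-D1 probe set (396 and 269) and above them at the 3 others, ranks 4, 5 and 6 by brightness.

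Against Q10, QH2 hearts had an H2-D1 difference of -1.86 ± 0.39 (adjusted p = 0.0725), an H2-K1 difference of 0.00 ± 0.28, and -1.21 for Psmb8 and -1.36 for Psmb9 (adjusted p = 0.109 and 0.103). None of the 9 passed, beside 0% of all probe sets, and 7 had an unadjusted limma p under 0.05, against 11.1% of all probe sets. The arrays did not overlap for 1 gene, B2m, with 4620, 3195 and 2140 on QH2, against 4735, 6876 and 5678 on Q10, and for 12% of all probe sets. Against control, H2-K1 had 1.63 ± 0.28 (adjusted p = 0.207) and H2-D1 -0.70 ± 0.39, and 0 of 9 passed, beside 0% of all probe sets. Without QH2 arrays 2 and 3, H2-D1 had 0.75 and H2-K1 1.10 against control, and H2-D1 had -0.41 and H2-K1 -0.53 against Q10, none of them called.

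Brain had low levels of these genes, and no diet difference passed. Q10 brains had 0 calls against control, beside 0% of all probe sets, and 2 of the 8 genes tested had an unadjusted limma p under 0.05, against 5.28% of all probe sets. H2-D1 had 195, 406 and 336 on Q10, against 216, 144 and 147 on control (0.84 ± 0.22, adjusted p = 0.774), and B2m had 942, 1575 and 1517 on Q10, against 942, 766 and 851 on control (0.62 ± 0.16, adjusted p = 0.774). Arrays 2 and 3 were above every control brain for both genes, and array 1 was within the control range for H2-D1. Without Q10 array 1, 2 genes passed, and the share of all probe sets called in that fit is not given here. Without arrays 2 and 3 H2-D1 had 0.23 and B2m 0.15. The summed leukocyte signal was 1026 to 1424 in Q10 brains and 976 to 1101 in control brains. QH2 brains had 0 calls against Q10, where 0% of all probe sets were called, with differences from -0.59 for H2-D1 to -0.00 for Psmb10. They had 0 calls against control, where 0.0111% of all probe sets were called, with differences from -0.24 for H2-K1 to 0.26 for Psmb8.

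The size of the effect in liver was set directly against the mean effect in kidney, heart and brain. For Q10 against control 0 of 9 genes passed, beside 6.65% of all probe sets, and Tap2 came nearest with 0.68 ± 0.26 (adjusted p = 0.107). For QH2 against control and QH2 against Q10 0 of 9 passed as well, beside 0.204% and 8.66% of all probe sets. Psmb8 had 0.77 ± 0.47 (adjusted p = 0.364) for Q10 against control. This fit takes the tissues as independent. Deviations from the group mean of Q10 arrays 1, 2 and 3 of 14 months correlated across probe sets at 0.37, 0.25 and 0.00 between liver and kidney, at 0.28, 0.16 and 0.14 between liver and heart, and at 0.31, 0.06 and 0.05 between kidney and heart. With brain these Q10 values ran from -0.00 to 0.12. Over the 18 same-numbered pairs of all groups the medians were 0.015, 0.008 and 0.008 for the same tissue pairs, with 3, 3 and 1 above 0.1. Each diet and duration had 3 mice, so the tissues shared mice however the arrays are numbered. The standard errors of the liver comparison and of the levels between tissues leave out what tissues of 1 mouse share.

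The 14-month and 6-month arrays differed in all tissues. Mice of the longer duration were also older, so duration and age cannot be told apart in these differences. Before normalisation, the mean signal of heart arrays was at most 140 at 6 months and at least 151 at 14 months. The part of age or of array processing in the duration differences was not tested. Over the 3 diets together, 9 arrays of 14 months against 9 of 6 months, 6 of 9 genes rose in liver (11.2% of all probe sets called higher), 9 of 9 in kidney (19.8%), 2 of 9 in heart (9.46%) and 6 of the 8 tested in brain (28.5%). Psmb10 fell in brain, by 0.17 (adjusted p = 0.0128), where 27.7% of all probe sets were called lower. The diets at 14 months differ in these genes, as described above, so the same values are also given for control mice alone.

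H2-D1 in brain was the clearest of these. Its 14-month signals were 187, 180.3 and 229 on QH2, 195, 406 and 336 on Q10 and 216, 144 and 147 on control. Its 6-month signals were 62.3, 86.4 and 76.2 on QH2, 103, 92.7 and 110.4 on Q10 and 109, 88.1 and 74.0 on control. Every 14-month brain was above every 6-month brain, as at 8.63% of all probe sets. The log2 difference was 1.28 ± 0.13 (227 ± 88.3 against 89.1 ± 16.4, SD, n = 9 each, limma adjusted p = 1.2e-07). It was 0.89 in control mice alone (adjusted p = 0.00471). Psmb9 rose in brain by 1.08 ± 0.20 (adjusted p = 0.000143), B2m by 0.62 ± 0.10 (adjusted p = 2.11e-05), Tap2 by 0.50 ± 0.10 (adjusted p = 0.000206), Psmb8 by 0.65 ± 0.25 (adjusted p = 0.0306) and H2-K1 by 0.43 ± 0.16 (adjusted p = 0.0268), and in control mice alone Tap2 passed as well (0.52, adjusted p = 0.0227). Tap1 had 10.8 to 37.1 at 14 months and 2.77 to 18.4 at 6 months, too dim in brain to be tested. In brain the class II list rose in 4 of 5 genes and fell in 1, the leukocyte list rose in 3 of 6 and fell in 1, and the microglia list rose in 0 of 5 and fell in 1. The dendritic cell list rose in 2 of 3 genes tested, and its summed signal was 194 to 258 at 14 months and 109 to 160 at 6 months, without overlap. The part of these markers in the class I difference was not tested.

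In kidney Psmb9 had the largest difference of the 9, 1.32 ± 0.31 (adjusted p = 0.00248), with 157, 119.7 and 133 on QH2, 125, 1238 and 494 on Q10 and 285, 127 and 398 on control at 14 months, against 85.1, 128 and 81.9 on QH2, 127, 116 and 94.0 on Q10 and 80.1, 99.7 and 70.5 on control at 6 months. All 6-month kidneys were low, and at 14 months 2 of 3 control and 2 of 3 Q10 kidneys were high while the QH2 kidneys overlapped the 6-month range. Psmb8 followed with 1.30 ± 0.28 (adjusted p = 0.00132), H2-K1 with 1.07 ± 0.24 (adjusted p = 0.00203) and H2-D1 with 0.94 ± 0.18 (adjusted p = 0.000554). Tap2, Tap1, Tapbp, Psmb10 and B2m rose by 0.64, 0.60, 0.50, 0.45 and 0.30. In control kidneys alone 0 passed, Psmb9 having 1.55 (adjusted p = 0.0746) and H2-D1 1.01 (adjusted p = 0.0512). Without Q10 arrays 2 and 3, 6 of 9 passed, and Psmb9 had 0.73. The leukocyte list rose with duration in 7 of 7 genes in kidney and the B cell list in 6 of 6.

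In liver the duration difference was 0.81 ± 0.15 for Psmb9 (adjusted p = 0.000899), 0.79 ± 0.13 for H2-D1 (adjusted p = 3e-04), 0.68 ± 0.14 for Psmb8 (adjusted p = 0.00224), 0.56 ± 0.10 for Tapbp (adjusted p = 0.000772), 0.48 ± 0.14 for H2-K1 (adjusted p = 0.0182) and 0.46 ± 0.13 for Tap2 (adjusted p = 0.0175). In control livers alone H2-D1 kept 0.76 (adjusted p = 0.0382), with 2363, 2154 and 2315 at 14 months, against 1036, 1173 and 1984 at 6 months, while Psmb8 had -0.04 and Psmb9 -0.00. H2-D1 was the 1 gene called in control livers. The leukocyte list rose with duration in 4 of 7 genes in liver and in 1 of 7 in heart. In heart H2-K1 rose by 0.74 ± 0.16 (adjusted p = 0.0032) and Psmb8 by 0.53 ± 0.18 (adjusted p = 0.0422), and in control hearts alone these were -0.23 and -0.07. Without QH2 arrays 2 and 3, 5 genes passed in heart, H2-D1 among them with 0.66 (adjusted p = 0.00325).

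**Figure D5:**
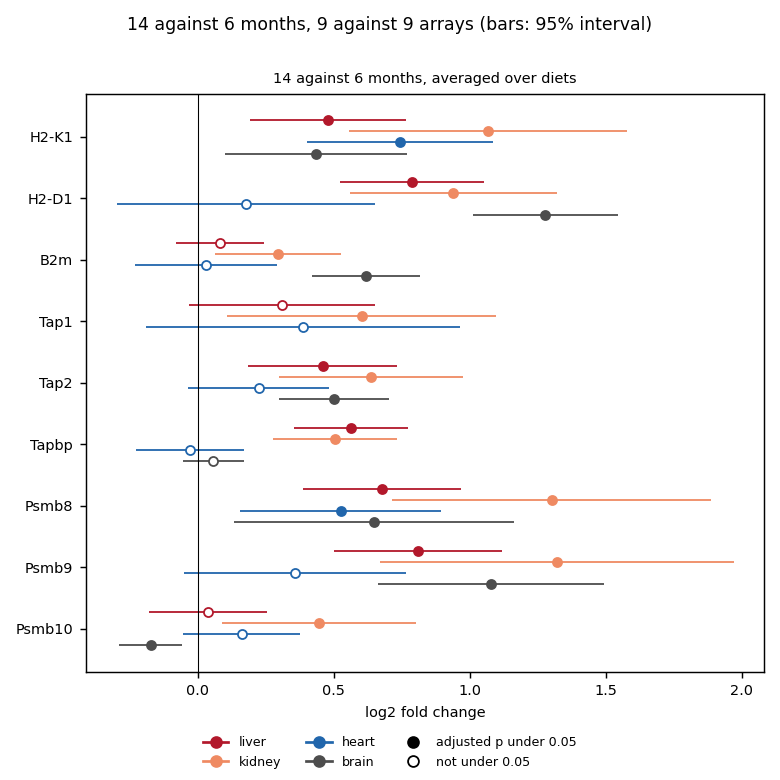
Log2 fold changes of the 9 genes for 14 against 6 months averaged over diets in 4 tissues, 9 against 9 arrays, with 95% intervals; filled points have an adjusted p under 0.05, and Tap1 in brain was below the signal filter. H2-D1 in brain (1.28) and Psmb8 and Psmb9 in kidney (1.30 and 1.32) are highest, and Psmb10 in brain (-0.17) is the filled point below 0.

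Other genes of the pathway were examined from lists. In liver at 14 months on Q10 against control, interferon gamma inducible genes rose in 9 of 11 tested (median log2 difference 2.07), among them the guanylate-binding proteins Gbp7 (1.99, adjusted p = 0.000333) and Gbp6 (2.46, adjusted p = 0.000529) and the GTPases Igtp (2.34, adjusted p = 0.000448) and Iigp1 (1.42, adjusted p = 0.000529). Type I interferon inducible genes rose in 7 of 12 (median 0.97), and interferon signalling genes in 5 of 11 (median 0.70), including the transcription factors Irf8 (2.04) and Irf1 (0.91), the receptor chain Ifngr1 (1.09) and the kinase Jak1 (0.75). Nlrc5, the transactivator of class I genes, rose by 1.17 ± 0.26 (adjusted p = 0.0137), the 1 gene of 9 called in the list of loading and transactivation, in which the disulphide isomerase Pdia3 had 0.39 and the trimming peptidase Erap1 0.37. The proteasome activator Psme1 rose by 0.86 ± 0.18 (adjusted p = 0.00714), 1 of 4 in its list. Among other class I heavy chains H2-M3 rose by 1.91 ± 0.26 (adjusted p = 0.000529), 1 of 5, while the liver-secreted H2-Q10 had -0.39 ± 0.16 (adjusted p = 0.168). Class II genes, which mark professional antigen-presenting cells, rose in 5 of 5 (median 2.43).

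In QH2 against Q10 livers, interferon gamma inducible genes fell in 9 of 11 (median -1.97), class II genes in 4 of 5 and type I interferon inducible genes in 6 of 12, and 1 of the 3 constitutive catalytic subunits rose. In QH2 against control livers none of these lists had a call. In heart, Q10 against control gave 0 calls among 12 interferon gamma inducible genes with a median of 1.72 and all 12 positive. In kidney the same list had 0 calls of 11 with a median of 0.78, and in brain 0 of 9 with 0.74.

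The members varied together within a tissue. Over the 18 arrays of a tissue, the median Pearson r of the 36 gene pairs was 0.79 for liver, 0.93 for kidney, 0.81 for heart and 0.67 for brain, where the lowest pair had -0.48; the arrays of a tissue share diet groups and the Q10 arrays that stood apart. Over all 72 arrays, centred by tissue, the genes most like the mean of the members were Mpeg1 (r = 0.90), Cd74 (0.89), Ptprc (0.88), Cd52 (0.88), H2-Ab1 (0.88) and Gbp2 (0.88), where the median of 10221 candidate genes was -0.02. Over the 18 livers alone they were Hmox2 (0.97), Unc93b1 (0.96), Cyba (0.96), Ncf4 (0.96), Iqgap1 (0.95) and Coro1a (0.95). Among members, Psmb9 and Psmb8 were nearest to the mean of all 9 in liver (0.99 and 0.97) and H2-D1 and B2m farthest (0.76 and 0.77), each member being part of that mean.

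Further probe sets of the members differed in part from the brightest ones. For Q10 against control in 14-month livers, 2 other H2-K1 probe sets were called, those of rank 2 at 0.69 and rank 3 at 0.91 (adjusted p = 0.0497 and 0.0398), and none of the 7 other H2-D1 probe sets tested was called, their differences running from 0.17 to 0.86. B2m had 0.28 on its second probe set, beside 0.26 on the brightest. The second Tapbp probe set had 0.34 (adjusted p = 0.348) there, and for 14 against 6 months it had -0.34 in liver and -0.46 in kidney, the opposite direction from the brightest one. The second Psmb8 probe set was dim. In 14-month livers it had 28.1, 20.5 and 1.38 on QH2, 14.7, 40.9 and 28.3 on Q10, and 13.3, 4.09 and 9.24 on control. Its Q10 and QH2 arrays thus overlapped, unlike those of the brightest one. The further Tap1 probe sets were below the signal filter in every tissue. Tap2, Psmb9 and Psmb10 had 1 probe set each.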

How the data were processed

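The deposited table holds the authors' linear signal intensity for 45101 probe sets on 72 Affymetrix arrays; per the labels' protocols, total RNA was extracted with Qiazol and labelled as biotin cRNA, and per the submitters' processing notes the signals were made with GCOS. The values were not at a common level between arrays, and 102 were 0. After leaving out 64 control probe sets, the 18 arrays of a tissue were quantile normalised, and log2 of the value plus 1 was taken. The 27022 probe sets of a tissue whose mean passed the 40th percentile went into limma 3.58.1 in R 4.3.3: 6 group means, moderated variance with an intensity trend, and 9 comparisons per tissue. Levels between tissues used all 72 arrays quantile normalised together.

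Gene symbols came from the platform annotation, 34945 probe sets having 1 symbol, 932 several and 9160 none; 34741 symbols were matched by Entrez identifier, and 3 member probe sets with several symbols were not used. The brightest probe set stood for each gene. From each list up to 4 genes with the smallest p, or any that a result turns on, are named. The 6 genes most alike to the members' mean are named as well. Myl7, Sln and the other genes given with them for heart were chosen after their values were seen. The members and lists were chosen with earlier results of these data known. Exact permutation of 3 against 3 arrays cannot go below p = 0.1, so the fit across all probe sets is given. The fitting was tested on simulated data with the same spread in every group. Of 100 simulated 2-fold changes on Q10 at 14 months, 29 were recovered for liver, 59 for kidney, 41 for heart and 69 for brain. Of 100 that were 4-fold, 68, 84, 76 and 90 were recovered, with 10, 10, 4 and 10 false calls. A gene that did not pass may therefore still differ.

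Alternatives were the signals as deposited, a trimmed mean scaling, other offsets, no filter, no trend, array weights, the Actb ratio as a covariate, the replicate number as a block, the next brightest probe set, only the groups compared, and leaving out each array. Leaving out the arrays that stood apart, and using the control diet alone, were chosen after seeing the data.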

Additional observations from a re-analysis of the deposited data

Results flagged for a closer look

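In liver, the Q10 effect differed between durations by a test of the difference itself for Psmb9 (1.99 on the log2 scale), Psmb8 (1.97), Tap1 (1.86) and Psmb10 (0.99), larger at 14 months. Without Q10 arrays 2 and 3 of 14 months 0 of the 9 genes passed.

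A signal appeared in probe sets that were tested but do not stand for their gene in the comparisons above. In QH2 hearts of 14 months, arrays 2 and 3 had 393 and 254 at the H2-D1 probe set of rank 6 by brightness. They had 372 and 271 at that of rank 5, and 476 and 279 at that of rank 4. The highest values in the 16 other hearts were 43.3, 54.3 and 121. The cause was not tested.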

How the results depend on the processing

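Counts below are of the 9 members called. With the next brightest probe set, Tap2, Psmb9 and Psmb10 could not be called, as they had 1 probe set each. Tap1 could not be called in any tissue, nor Psmb8 in heart and brain, as that probe set was below the signal filter. Lower counts under that setting are therefore partly tests that could not be made. The share of all probe sets called under each setting, or with each array left out, is not given here. A shift in a count may therefore not be particular to the members. In liver, Q10 against control at 14 months (7 called) gave 4 on the signals as deposited, 0 with the Actb ratio as covariate, 1 with the next brightest probe set, 0 with only the groups compared and 1 without Q10 arrays 2 and 3. QH2 against Q10 in liver (8) gave 4, 0, 2, 0 and 0 under the same settings. The liver difference of the Q10 effect (4) gave 0 as deposited, 7 with array weights, and 0 with the Actb ratio, the next brightest probe set, or without Q10 arrays 2 and 3. Duration in liver (6) gave 3 as deposited, 3 with the next brightest probe set and 1 on the control diet. In kidney, Q10 against control (0) gave 1 with the Actb ratio, and QH2 against Q10 (5) gave 0 as deposited, 3 with the trimmed mean, 1 without the filter, 0 without the trend, 0 with the next brightest probe set, 0 with only the groups compared and 0 without Q10 arrays 2 and 3; duration (9) gave 2 with the next brightest probe set and 0 on the control diet. In heart, Q10 against control (0) gave 8 as deposited, 1 without the filter, 8 with array weights and 1 with the Actb ratio; QH2 against control (0) gave 1 as deposited and 1 with array weights; QH2 against Q10 (0) gave 3 as deposited and 7 with array weights; duration (2) gave 9 as deposited, 1 without the trend, 1 with the Actb ratio, 1 without Q10 arrays 2 and 3, 5 without QH2 arrays 2 and 3 and 0 on the control diet. Duration in brain (7) gave 2 with the Actb ratio, 3 with the next brightest probe set, 4 without Q10 arrays 2 and 3 and 2 on the control diet. The causes of these shifts were not tested.

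The replicate block moved QH2 against Q10 in kidney to 1 and duration in heart to 1. Same-numbered arrays within a tissue had median correlations of -0.00 (liver), -0.00 (kidney), -0.01 (heart) and 0.00 (brain). The lowest single value was -0.30, for a kidney pair, and the highest was 0.17, for a brain pair. Each pair joins arrays of different diet or duration groups, and therefore different mice. These values cannot show whether an array number stands for anything shared.

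Leaving out each array in turn gave 7 to 8 calls for Q10 against control in liver, 5 to 9 for QH2 against Q10, 6 to 6 for duration and 2 to 7 for the difference of the Q10 effect. Kidney gave 0 to 7 for Q10 against control, 0 to 9 for QH2 against Q10 and 6 to 9 for duration. Heart gave 0 to 6 for Q10 against control, 0 to 2 for QH2 against control, 0 to 7 for QH2 against Q10, 1 to 2 for duration and 0 to 1 for the difference of the QH2 effect. Brain gave 0 to 2 for Q10 against control and 5 to 7 for duration, and the other comparisons gave 0 to 0. The highest heart, kidney and brain counts for Q10 against control came without Q10 array 1. QH2 against Q10 in liver had 5 without Q10 array 2 or QH2 array 3, in kidney 9 without Q10 array 1 and 0 without each of the other arrays, and in heart 6 without Q10 array 1 and 7 without QH2 array 1. QH2 against control in heart had 2, and the difference of the QH2 effect 1, without QH2 array 1 of 14 months. The liver difference of the Q10 effect had 7 without Q10 array 1 of 14 months, 6 without Q10 array 1 of 6 months, and 2 without Q10 array 2 or 3 of 6 months, control array 2 of 14 months or Q10 array 2 of 14 months. Duration in heart had 1 without any of 13 of the 18 arrays.

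Directions reversed in 8 of 1107 single-gene values, while 820 kept their call and 279 lost it. Tapbp on its second probe set had -0.34 for duration in liver, -0.46 for duration in kidney and 0.22 for QH2 against Q10 in kidney. On the control diet, duration gave -0.0378 for Psmb8 and -0.0020 for Psmb9 in liver, and -0.23 for H2-K1 and -0.0711 for Psmb8 in heart. Psmb10 in brain had 0.33 for duration on the signals as deposited.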
